A study of Mus musculus with 3 samples.

Results

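Disease-associated type microglia were studied here among the CD45+ cells of mouse gliomas. A cell was selected when it carried at least 2 UMIs (unique molecular identifiers, 1 per captured mRNA molecule) of Cst7, Clec7a, Lpl, Itgax and Axl together, and at least 3 UMIs of the microglial genes P2ry12, Tmem119 and Gpr34 together. Selected cells also had no UMI of the cycling genes Mki67 and Top2a, at most 2 UMIs of the border macrophage genes Mrc1, Cbr2 and Pf4, at least 500 UMIs and 500 genes, and at most 20% mitochondrial UMIs. This gave 673 cells, out of 6263 microglia, 11218 CD45+ cells within the quality limits, 11720 CD45+ cells deposited and 20811 cells in the whole series. They were compared with 5294 microglia of the same tumors that met the same limits and held 0 or 1 UMI of the 5 marker genes. A further 296 microglia were in neither group, because 223 microglia were cycling and 81 exceeded the border limit, with some cells meeting both.

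All tumors carried a Cre-dependent human EGFR transgene (EGFR WT in the labels), loss of Cdkn2a and a Cre-dependent luciferase reporter on a mixed background, and were started by a Cre lentivirus injected into the striatum of adult mice. The study's methods name a vector with iCre alone and one with TGFa and iCre. Cells were dissociated with collagenase, cleared of myelin on Percoll, sorted for viability and CD45, and captured by inDrop, a droplet method that reads mRNA 3′ ends. The CD45+ sort held 12 of the 24 libraries, 4 each from an early, a medium and a large tumor sample, spread over 3 sequencing runs. The early samples were pooled from 2 mice per the study's methods. The 3 deposited samples correspond to these runs, are titled as pools of tumors or a tumor, and each hold libraries of all 3 stages. The libraries of a stage were taken as technical repeats. A stage was thus treated as 1 tumor sample and no test between stages was possible. Both cell groups came from these tumors, and no tumor-free brain was analysed here.

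Microglia are the resident macrophages of the brain parenchyma. In their homeostatic state they express purinergic, chemokine and TGF-β dependent genes such as P2ry12, Cx3cr1 and Sall1. The disease-associated state was described in models of neurodegeneration, where homeostatic genes are reduced and genes for lipid handling, lysosomal digestion and phagocytosis are raised, partly downstream of the lipid receptor Trem2. Of the 5 marker genes, Cst7 encodes cystatin F, an inhibitor of lysosomal cathepsins, Clec7a encodes the β-glucan receptor Dectin-1, and Lpl encodes lipoprotein lipase. Itgax encodes the integrin CD11c, and Axl encodes a receptor tyrosine kinase that helps to take up dying cells. On mouse build GRCm38, Cst7 lies at chr2:150570415-150578944, Clec7a at chr6:129461591-129472779, Lpl at chr8:68880491-68907448, Itgax at chr7:128129547-128150657 and Axl at chr7:25757273-25788705.

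Library totals ranged from 62320 to 4235020 UMIs and from 17 to 1755 cells. The selected cells were deeper than the comparison cells in each tumor. Their median was 2445, 2712 and 3331 UMIs in the early, medium and large tumor, against 1959, 1768.5 and 1875 UMIs. Of 10832 distinct cell barcodes, 746 occurred in more than 1 CD45+ library, and 96 selected cells held such a barcode. A doublet score was had for 656 selected cells, of which 72 (11%) lay in the top 5% of their library, against 270 of 5280 comparison cells (5.11%). The counts of called genes over all genes were repeated with matched depth, without shared barcodes and without high doublet scores. The same was done for the shares, by thinning in place of matching.

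The microglial identity of the selected cells was checked with genes that the rule did not use. Cx3cr1, the fractalkine receptor, was detected in 97.8%, 95.6% and 98.5% of the selected cells of the early, medium and large tumor. In the comparison cells it was detected in 99.2%, 97.9% and 99.6%. Siglech was detected in 80.8%, 51.0% and 52.8% of the selected against 86.6%, 79.6% and 87.9% of the comparison cells. Fcrls was detected in 16.6%, 5.22% and 26.2% against 23.9%, 9.1% and 19.5%. Sall1, a transcription factor restricted to microglia among brain macrophages, was sparse in both groups and was detected in 26.2%, 13.7% and 16.9% of the selected cells against 27.0%, 20.4% and 32.0% of the comparison cells. The human EGFR transgene contributed 1, 3 and 29 UMIs, which came from 1, 2 and 3 selected cells.

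Markers of other cells were also present. The summed level of 20 monocyte or macrophage markers was 522 to 1650 CPM (UMIs of a gene or list scaled to a fixed total per cell group) in the selected cells and 180 to 548 in the comparison cells, with Ms4a8a at 0. Of the 17 markers of that list that could be tested, Itgal, Vim, Ms4a7 and Ms4a6c were called higher (3.76% of all genes called higher). Ms4a7 missed the threshold with cycling and border cells kept in the comparison (1.79, adjusted p = 0.0678). The neutrophil list summed to 2030, 1230 and 876 CPM in the selected cells of the early, medium and large tumor against 504, 2140 and 950, so it was higher in the early tumor only. There 4 of 229 selected cells held all 292 UMIs of S100a8, a member of that list. The T or NK cell list summed to 34.9 to 145 against 81.5 to 181, and the B cell list to 404, 1920 and 173 against 561, 1400 and 972. The glioma or progenitor list summed to 84.6, 46.7 and 47.4 against 19.1, 37.6 and 29.6. Their part in the results below was not tested, except where cells with macrophage genes were left out.

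The values of the 5 marker genes chose the cells, so their levels are a description with no test. Lpl stood at 905, 554 and 1430 CPM in the selected cells of the early, medium and large tumor, and was detected in 57.2%, 42.6% and 59.5% of them. Axl stood at 288, 546 and 601 CPM, and Itgax at 319, 351 and 488. Clec7a stood at 55.3, 109 and 470 CPM. It was detected in 7.86%, 14.9% and 53.3% of the selected cells, so this receptor was sparse outside the large tumor. Cst7 stood at 40.7, 284 and 116 CPM and was detected in 5.68%, 38.6% and 21.5%. Over all microglia, without the marker rule, Clec7a stood at 6.53, 38.8 and 150 CPM and Cst7 at 5.48, 99.5 and 40.6, which kept the order of the stages. Itgax, at 36.9, 136 and 156 CPM, kept it too. Lpl, at 82.4, 206 and 447 CPM, and Axl, at 32.9, 212 and 188, did not keep the order seen in the selected cells. Exact Poisson intervals of neighbouring stages overlapped for Itgax between early (276 to 367) and medium (310 to 396) and for Axl between medium (494 to 601) and large (546 to 661). They did not overlap for other neighbouring stages. These intervals cover counting error only.

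Detection of more than 1 marker gene in the same cell became more frequent from the early to the large sample. At least 2 of the 5 genes were detected in 40.2%, 67.5% and 76.4% of the selected cells of the early, medium and large tumor. At least 3 were detected in 8.73%, 30.1% and 44.1%, and all 5 in 0, 2 and 22 cells. Lpl alone selected 69 of the 229 early cells, against 17 of 249 medium and 6 of 195 large cells. Of all 673 cells, 194 (28.8%) stood at the threshold with exactly 2 UMIs. Depth per cell also differed between stages, as given above.

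Marker UMIs in droplets of other cells gave the background. T cells were taken as cells with at least 2 UMIs of Cd3e, Cd3d and Cd3g together. B cells were cells with at least 2 of Cd79a, Cd79b and Ms4a1, and both held at most 1 UMI of the microglial genes. Without that last limit, 41 of 396 such T cells (10.4%) and 19 of 148 B cells (12.8%) held at least 3 UMIs of the microglial genes. The microglial rule alone thus did not keep out all droplets with T or B cell genes. Among T cells, 8.85% of 113 early, 16.6% of 175 medium and 7.27% of 55 large cells held at least 2 UMIs of the 5 genes, at median depths of 2149, 2056 and 2068 UMIs. T cells express Cst7 themselves, which was detected in 17.5% of the 343 T cells and in 12.4% of the early ones. Each of the other 4 genes was detected in 1.77% to 4.42% of early T cells and in 0.819% to 6.55% of early microglia. Among B cells the share was 0 of 11 early cells (exact upper bound 28.5%) and 4.08% of 98 medium cells. It was 18.8% of 16 large B cells (exact interval 4.05% to 45.6%). The median over the 125 B cells was 2905 UMIs. Microglia reached 6.28%, 26.8% and 21.2%, at median depths of 2000.5, 1926.5 and 2062 UMIs. The early share was no higher than that of early T cells (exact interval 4.33% to 15.7%), which includes their own Cst7, and was not read as expression on its own, while the medium and large shares were above the T cell intervals (11.4% to 22.9% and 2.02% to 17.6%). The large share lay inside the wide interval of the 16 large B cells. With cells grouped on all their UMIs and only the 5 marker genes read after thinning each cell to 1000 UMIs, non-cycling and non-border microglia stood at 2.50%, 14.1% and 11.2% and T cells at 1.92%, 6.86% and 5.56%. The medium share was then still above the T cell interval (3.59% to 11.7%), whereas the large share lay inside it (1.16% to 15.4%, 54 T cells) and below the 18.8% of large B cells. The test of each marker gene in cells chosen by the other 4 genes follows and gives the early tumor separately. RNA of another cell could carry several of the 5 genes into a droplet together. That test therefore cannot tell such background from expression by the cell itself.

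Each marker gene was then tested where it had not chosen the cells. Microglia were regrouped by the other 4 genes, and the fifth was read from an edgeR quasi-likelihood fit on all genes with the tumor as a block. Cst7 reached 23.5, 228 and 111 CPM in early, medium and large cells with at least 2 UMIs of the other 4 genes, and 3.13, 43.8 and 6.79 in the other microglia. It was higher in 3 of 3 tumors, with a log2 fold change of 3.06 ± 0.286 (SE, n = 3 tumors) and an adjusted p of 2.98e-07. In that regrouping 3.87% of all tested genes were called higher. Clec7a stood at 20.5, 78.3 and 439 against 3.90, 19.6 and 30.4 CPM. Its log2 fold change was 3.08 ± 0.343 with an adjusted p of 0.000237 (3.41% of genes called higher).

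Itgax stood at 178, 291 and 457 against 27.3, 66.4 and 51.6 CPM. The 2 groups did not overlap between tumors for Itgax, and its log2 fold change was 2.77 ± 0.215 with an adjusted p of 4.96e-07 (3.98% of genes called higher). Axl stood at 160, 404 and 559 against 20.4, 132 and 58.7, with a log2 fold change of 2.69 ± 0.278 and an adjusted p of 3.58e-05 (3.80% of genes called higher). Without the early tumor the Axl call was lost, at 2.54 with an adjusted p of 0.0963. Lpl stood at 415, 421 and 1410 against 66.6, 101 and 63.7 CPM. It was higher in 3 of 3 tumors by 3.15 ± 0.652 on the log2 scale but did not pass the test, with an adjusted p of 0.145 (2.97% of genes called higher). Lpl passed without the medium tumor (3.66, adjusted p = 1.09e-25) and without the large tumor (2.45, adjusted p = 1.61e-07), but not without the early tumor (3.41, adjusted p = 0.356). A fit with 1 tumor left out has only 2 tumors to judge spread, so its p-value can lean on spread shared between genes. The size of such a p-value is therefore no measure of how well the tumors match. Each cell's UMIs were also split at random, with the rule applied to one set and the counts taken from the other. All 5 genes then passed, with log2 fold changes of 2.42 for Itgax to 4.92 for Lpl. That rule still used all 5 genes, so each gene helped to choose the cells in which it was read. The split is therefore no held-out test and does not bear on the Lpl result above.

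**Figure D1:**
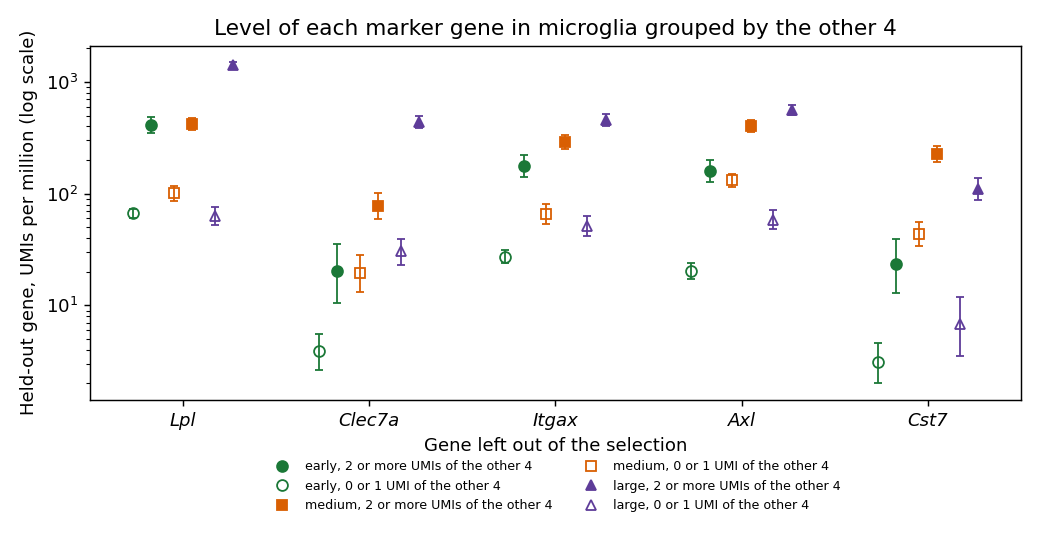
Level of each marker gene, in CPM on a log axis, in microglia grouped by the other 4 marker genes, for the early, medium and large tumor. Filled symbols are cells with at least 2 UMIs of the other 4, open symbols cells with 0 or 1, and bars are exact 95% Poisson intervals covering counting error only. The filled symbol lies above the open one in each tumor for all 5 genes, for example at 439 against 30.4 for Clec7a in the large tumor.

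Outside the 13 genes of the rule, 9627 genes were tested between the selected and comparison microglia, and 569 (5.91%) were called at an adjusted p of 0.05. Of these, 362 (3.76%) were higher and 207 (2.15%) lower in the selected cells, and 568 had the same direction in all 3 tumors. The median log2 fold change over all genes was −0.01. Without TMM scaling it was −0.11, and 255 genes were higher and 299 lower. With depth-matched comparison cells 389 of 7562 genes (5.14%) were called, 235 (3.11%) higher and 154 (2.04%) lower. With the rule and the counts on separate UMIs 248 of 5790 genes (4.28%) were called, 153 (2.64%) higher and 95 (1.64%) lower.

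The 30 other genes known from disease-associated microglia were mostly higher. Of these, 24 were called higher and 0 lower (at a background of 3.76% of all genes called higher), with a median log2 fold change of 1.50. The median was 1.07, 1.14 and 1.62 in the early, medium and large tumor. Their summed level was 35600, 62200 and 73800 CPM in the selected cells and 24400, 29500 and 25600 in the comparison cells. The ratio of the sums was thus smallest in the early tumor.

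Among the secreted factors, Igf1, insulin-like growth factor 1, stood at 13, 29.4 and 384 CPM in the selected cells of the early, medium and large tumor, against 0.914, 6.16 and 27.3. The groups overlapped across tumors but not within any of them. Its log2 fold change was 3.60 ± 0.318 (adjusted p = 9.4e-07), and 103 of the 673 cells held its UMIs. Gpnmb, a transmembrane glycoprotein of lysosomes, stood at 3.25, 12 and 61.4 against 0.783, 1.37 and 10.8 (log2 fold change 2.63 ± 0.502, adjusted p = 0.00356). Only 14 selected cells held its UMIs, and 1 of these cells gave 40% of them. Ch25h, which makes 25-hydroxycholesterol, stood at 9.76, 14.7 and 26.5 against 1.44, 4.11 and 3.99 (2.55 ± 0.553, adjusted p = 0.00922). Lilrb4a, an inhibitory immunoglobulin-like receptor, stood at 35.8, 44.0 and 78.1 against 2.22, 21.2 and 3.42 (3.05 ± 0.654, adjusted p = 0.0465), and missed the threshold without TMM scaling (2.95, adjusted p = 0.0553).

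Other members of the list are named here after their values were seen. Apoe, the main lipid carrier of the brain, stood at 4560, 13100 and 30400 CPM in the selected cells and at 2290, 3180 and 4580 in the comparison cells. It was higher by 2.03 ± 0.352 on the log2 scale (adjusted p = 0.0258), and its ratio was largest in the large tumor. The lysosomal protease genes Ctsb (1.15 ± 0.178, adjusted p = 0.000552) and Ctsd (0.76 ± 0.186, adjusted p = 0.0189) were also higher, as was Cstb, a cathepsin inhibitor, by 2.01 ± 0.194 (adjusted p = 2.69e-06). Spp1, osteopontin, stood at 174, 234 and 1450 against 6.40, 34.9 and 28.5, but with a log2 fold change of 4.55 ± 0.816 its adjusted p was 0.127. Trem2 stood at 962, 722 and 901 against 1010, 934 and 977 CPM. Its log2 fold change was −0.08 ± 0.163 with an adjusted p of 0.823, and the 2 groups overlapped between tumors. Its signalling partner Tyrobp was higher by 0.63 ± 0.170 (adjusted p = 0.0343).

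The homeostatic genes moved the other way. Of 26 tested, 17 were called lower and 0 higher, at a background of 2.15% of genes called lower, with a median log2 fold change of −0.77. The medians were −0.48, −0.87 and −1.10 in the early, medium and large tumor. P2ry13, an ADP receptor, stood at 563, 263 and 250 CPM in the selected cells against 1020, 775 and 1050 in the comparison cells. The groups did not overlap, and the log2 fold change was −1.38 ± 0.200 (adjusted p = 0.000276). Adgrg1, an adhesion receptor, stood at 330, 141 and 106 against 505, 400 and 465 (−1.28 ± 0.227, adjusted p = 0.00324). Siglech, a sialic acid binding lectin, stood at 1150, 530 and 406 against 1590, 1500 and 1730 (−1.25 ± 0.244, adjusted p = 0.0105), and it missed the threshold without TMM scaling (−1.35, adjusted p = 0.053) and with DESeq2 (−1.24, adjusted p = 0.0514). Crybb1, a crystallin gene expressed by microglia, stood at 269, 215 and 50.2 against 499, 398 and 275 (−1.22 ± 0.258, adjusted p = 0.0152), and missed the threshold with the rule and the counts on separate UMIs (−1.10, adjusted p = 0.0706). The early cells kept the highest levels of all 4 genes among the selected groups.

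**Figure D2:**
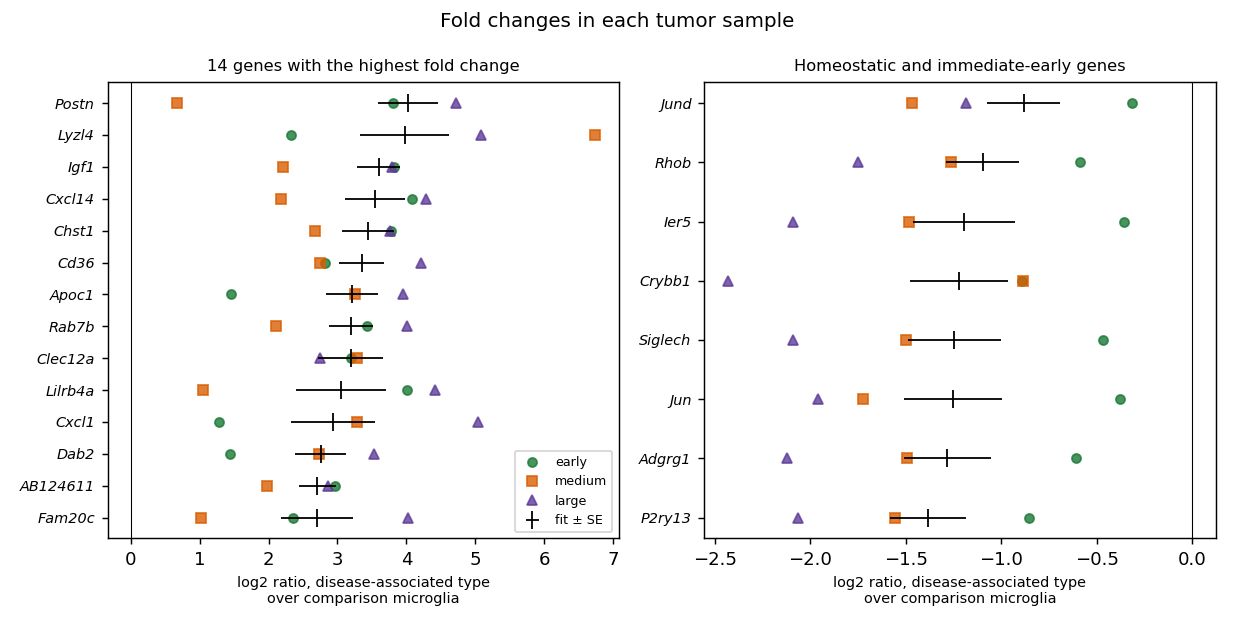
Log2 ratio of the selected over the comparison microglia in each tumor (symbols) with the fitted log2 fold change ± SE (cross) for the 14 genes with the highest fold change and for homeostatic and immediate-early genes. The 14 highest genes were chosen with the same direction in all tumors, so their points lie above 0 by selection. The homeostatic and immediate-early genes shown are only the called genes with the largest changes in each list, and all their points lie under 0. Among these the early tumor is closest to 0 or level with the medium one (P2ry13: −0.86 early, −1.56 medium and −2.06 large).

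Levels also moved with the number of marker UMIs in a cell, within each tumor. The homeostatic genes together stood at 68800, 58200 and 63000 CPM in early, medium and large microglia without a marker UMI, and at 45300, 22300 and 21000 in cells with 5 or more. The other disease-associated genes stood at 24000, 27600 and 23500 without a marker UMI and at 46800, 69500 and 82400 with 5 or more. Across the threshold the change was gradual. Just outside it, cells with 1 marker UMI held 28300, 39100 and 37800 CPM of the latter genes. Just inside it, cells with 2 held 32100, 48200 and 45600. The comparison cells with 1 marker UMI (513 cells) thus lay between the other comparison cells and the selected ones. Median depth also rose with marker UMIs, from 1899 UMIs in cells with none to 3451 in cells with 5 or more.

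**Figure D3:**
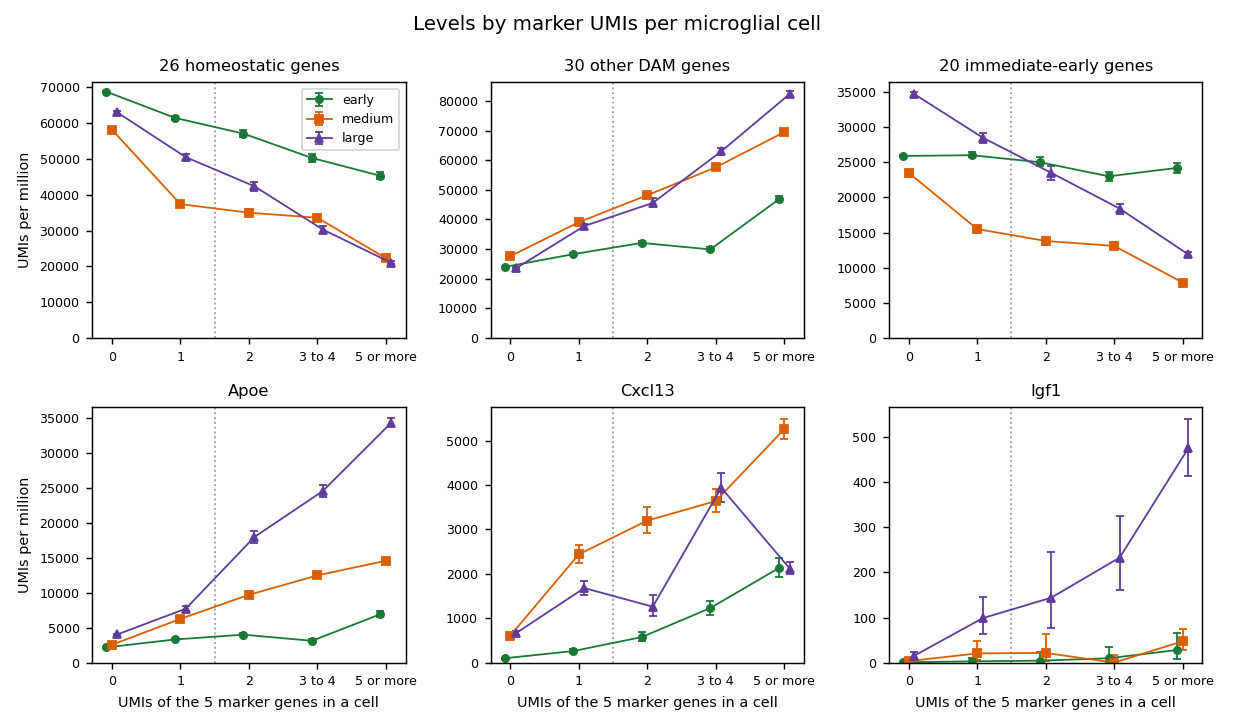
Summed CPM of 3 gene lists and the level of 3 single genes in microglia with 0, 1, 2, 3 to 4 and 5 or more UMIs of the 5 marker genes, for the early, medium and large tumor, with exact 95% Poisson intervals. The dotted line is the selection threshold. Apoe reaches 34400 in large-tumor cells with 5 or more marker UMIs, against 6940 in the early tumor, and the immediate-early genes of the early tumor stay between 23000 and 26000.

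Most of the 14 genes with the highest fold changes were detected in few of the selected cells at this depth. Some, such as Lyzl4, Clec12a, Cxcl14 and Cxcl1, passed the filter on low counts through the selected cells alone, as did Ch25h above. A gene as low in both groups as these were in the comparison cells was not tested. The folds and p-values of these genes carry that limit. Cd36, a scavenger receptor and fatty acid carrier, stood at 22.8, 93.4 and 110 CPM in the selected cells of the early, medium and large tumor against 3.26, 13.7 and 5.70. The groups did not overlap, with a log2 fold change of 3.35 ± 0.328 (adjusted p = 3.11e-06), yet 88 of 673 cells (13.1%) held a UMI. Apoc1, an apolipoprotein, stood at 6.51, 140 and 73.9 against 2.61, 14.4 and 4.56 (3.22 ± 0.376, adjusted p = 3.90e-05). Rab7b, a late endosomal GTPase, stood at 50.4, 92.1 and 105 against 4.70, 21.2 and 6.27 (3.20 ± 0.317, adjusted p = 3.88e-06). Dab2, an endocytic adaptor, stood at 24.4, 56.1 and 194 against 9.27, 8.21 and 16.5 (2.76 ± 0.367, adjusted p = 0.000664). It missed the threshold with cycling and border cells kept in the comparison (2.08, adjusted p = 0.151). Without cells that held macrophage genes, Dab2, Postn, Clec12a, Cxcl1, Gpnmb and Ch25h fell below the filter on low counts and were not tested.

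Postn, which encodes the matrix protein periostin, had the highest fold change among the called genes outside the rule with at least 60 UMIs, at 4.03 ± 0.436 (adjusted p = 0.000293). It stood at 74.9, 5.34 and 248 CPM against 5.35, 3.42 and 9.12, so the medium tumor had little of it in either group. Lyzl4, a lysozyme-like gene, stood at 17.9, 36.0 and 67.0 against 3.66, 0 and 1.71 (3.98 ± 0.648, adjusted p = 0.00576). The chemokine gene Cxcl14 stood at 11.4, 41.4 and 93.5 against 0.653, 8.90 and 4.56 (3.54 ± 0.439, adjusted p = 4.98e-05). The remaining 6 of the 14 genes were the sulfotransferase gene Chst1, the inhibitory lectin gene Clec12a, the neutrophil chemokine gene Cxcl1, AB124611, the secretory kinase gene Fam20c and Lilrb4a, with log2 fold changes of 2.70 to 3.44. Fam20c missed the threshold with depth-matched cells (2.31, adjusted p = 0.0962). Only 15 selected cells held a UMI of Cxcl1.

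The 14 genes with the lowest fold changes were all rare. Some, Adrb1 among them, passed the filter on low counts through the comparison cells alone, such as Zc3h6 at 1.63, 1.33 and 1.40 CPM against 11.1, 12.3 and 13.1. A gene that low in both groups was not tested. Adrb1, the β1-adrenergic receptor, stood at 8.14, 0 and 0 CPM in the selected cells against 26.9, 23.3 and 18.8. Its log2 fold change was −3.14 ± 0.650 (adjusted p = 0.0077), and 3 selected cells held a UMI. Prkd1, a protein kinase, stood at 11.4, 0 and 8.37 against 35.0, 21.9 and 26.2 (−2.06 ± 0.485, adjusted p = 0.0152). The others given here were Zc3h6, Dip2a, Olfml2b, Vmn1r230, Nhs, Abhd17b, Cstf3, B4galt4, Hic2, Slc35e3 and Slfn8, each detected in 3 to 12 selected cells. Hic2 missed the threshold with depth-matched cells (−1.51, adjusted p = 0.16), and Abhd17b, Nhs, Vmn1r230 and Dip2a did without cells holding macrophage genes (adjusted p = 0.0612, 0.183, 0.0717 and 0.106).

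**Figure D4:**
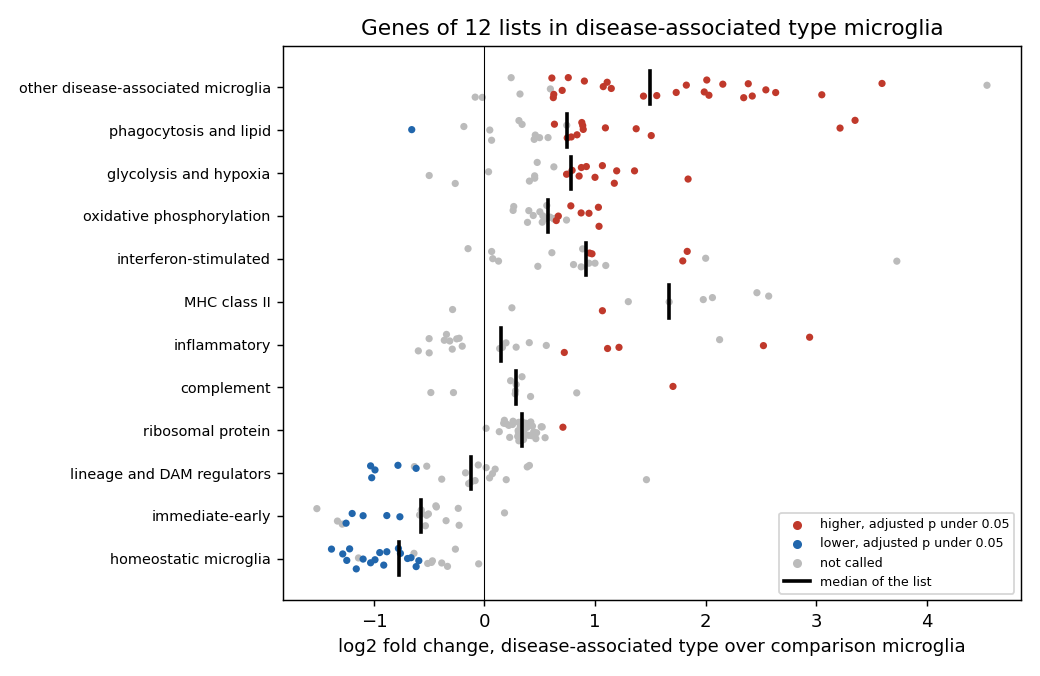
Log2 fold change of each tested gene of 12 gene lists in the selected over the comparison microglia, with genes called higher in red, called lower in blue and not called in grey, and the median of each list as a bar. The other disease-associated genes have a median of 1.50 and the homeostatic genes −0.77, while the MHC class II genes have a median of 1.67 with 1 gene called.

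Genes of phagocytosis and lipid handling were higher in part. Of 23 tested, 12 were called higher and 1 lower (3.76% and 2.15% over all genes), with a median log2 fold change of 0.74. Plin2, which coats lipid droplets, stood at 45.6, 141 and 184 CPM against 29.8, 44.5 and 53.6 (1.51 ± 0.239, adjusted p = 0.000688), but lost its call with depth-matched comparison cells (0.83, adjusted p = 0.0832). Pld3, a lysosomal nuclease, stood at 163, 286 and 350 against 106, 98.6 and 112 (1.37 ± 0.213, adjusted p = 0.000607). Mertk, which recognises dying cells as Axl does, was the 1 gene called lower, at 382, 238 and 229 against 538, 371 and 509 (−0.66 ± 0.177, adjusted p = 0.0332). With depth-matched cells, with the rule and the counts on separate UMIs or without cells holding macrophage genes, 0 genes of the list were called lower, so the Mertk call was lost in each.

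Glycolysis and hypoxia genes were higher for 11 of 20 tested and lower for 0 (3.76% of all genes called higher), with a median of 0.78. Pkm, the last enzyme of glycolysis, stood at 449, 896 and 785 CPM against 277, 385 and 320. The groups did not overlap (1.17 ± 0.182, adjusted p = 0.000563). Tpi1 (1.20 ± 0.197, adjusted p = 0.000982) and Mif, a cytokine gene (1.36 ± 0.206, adjusted p = 0.000442), were higher in 3 of 3 tumors. Vegfa, the angiogenic growth factor, stood at 53.7, 44.0 and 37.7 against 10.6, 18.5 and 13.1 (1.84 ± 0.308, adjusted p = 0.0011), with 19.4% of its UMIs from 1 cell. Vegfa lost its call with depth-matched cells (0.97, adjusted p = 0.102).

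Inflammatory genes did not move together. Of 22 tested, 5 were called higher and 0 lower (3.76% of all genes called higher), with a median of 0.15. With depth-matched comparison cells 2 of 20 were called higher. Cxcl13, a B cell attracting chemokine, stood at 1250, 4430 and 2380 CPM against 114, 913 and 809. The groups did not overlap, and the log2 fold change was 2.52 ± 0.321 (adjusted p = 0.0041), but the call was lost with depth-matched comparison cells (2.15, adjusted p = 0.414), without TMM scaling (2.42, adjusted p = 0.0637) and with cycling and border cells kept in the comparison (2.41, adjusted p = 0.139). Cxcl16 stood at 319, 350 and 315 against 141, 175 and 140 (1.22 ± 0.170, adjusted p = 0.000207). Cxcl1, named above, and Ptgs2, the prostaglandin synthase COX-2 (1.11 ± 0.257, adjusted p = 0.0223), were also called. Ptgs2 lost its call with depth-matched cells (1.14, adjusted p = 0.155) and without cells holding macrophage genes (0.95, adjusted p = 0.148). The list's median per tumor was 0.43 in the early and −0.30 and −0.21 in the medium and large tumor.

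Immediate-early genes respond within minutes to stimulation and to tissue dissociation. Of 20 tested, 5 were called lower and 0 higher (2.15% of all genes called lower), with a median of −0.57. Jun stood at 1340, 434 and 681 CPM against 1740, 1430 and 2650 (−1.25 ± 0.255, adjusted p = 0.0152). Ier5 stood at 835, 300 and 252 against 1070, 841 and 1080 (−1.20 ± 0.267, adjusted p = 0.0258). Rhob (−1.10 ± 0.192, adjusted p = 0.00175) and Jund (−0.88 ± 0.193, adjusted p = 0.00979) fell as well. Jun and Ier5 missed the threshold, at folds of about the same size, without TMM scaling (−1.36, adjusted p = 0.0665 and −1.30, adjusted p = 0.0696) and with DESeq2 (−1.24, adjusted p = 0.0641 and −1.20, adjusted p = 0.0983). Ier5 also did without cells holding macrophage genes (−1.14, adjusted p = 0.0715). The list's median was −0.18 in the early tumor against −1.07 and −1.09 in the medium and large tumor.

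Among antigen presentation genes the MHC class II list had a median of 1.67, with 1 of 9 genes called (3.76% of all genes called higher). H2-DMa, a peptide loading factor, stood at 309, 725 and 439 CPM against 170, 569 and 132 (1.07 ± 0.224, adjusted p = 0.0109), and missed the threshold with the rule and the counts on separate UMIs (0.72, adjusted p = 0.0607). The medians for the early, medium and large tumor were 1.56, 0.30 and 3.89. Cd74, the invariant chain, named here after its values were seen, stood at 4160, 10400 and 5700 against 1290, 8410 and 336 CPM. The comparison microglia of the medium tumor were already high, and its adjusted p was 0.487. Of 13 MHC class I genes, H2-K1 (0.72 ± 0.162, adjusted p = 0.0121) and H2-D1 (0.60 ± 0.163, adjusted p = 0.0343) were called higher. H2-D1 missed the threshold with separate UMIs (0.46, adjusted p = 0.159) and without cells holding macrophage genes (0.51, adjusted p = 0.0633). Reads of these near-identical H2 genes may be divided between copies, so their single values are uncertain.

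Interferon-stimulated genes were called higher for 4 of 18 tested (3.76% over all genes), with a median of 0.92. Ifi27l2a stood at 52.1, 324 and 37.7 CPM against 15.8, 94.5 and 13.7 (1.79 ± 0.216, adjusted p = 3.81e-05). Ifitm3, which blocks viral entry, stood at 74.9, 98.8 and 9.77 against 8.49, 47.2 and 8.55 (1.83 ± 0.448, adjusted p = 0.0446), so it hardly differed in the large tumor. Bst2 (0.97 ± 0.203, adjusted p = 0.00715) and Isg15 (0.95 ± 0.257, adjusted p = 0.0333) were also called. Bst2 missed the threshold with the rule and the counts on separate UMIs (0.46, adjusted p = 0.584). Isg15 missed the threshold with depth-matched cells (0.82, adjusted p = 0.0674), without TMM scaling (0.84, adjusted p = 0.0644), with DESeq2 (0.88, adjusted p = 0.115), with separate UMIs (0.92, adjusted p = 0.211) and without cells holding macrophage genes (0.72, adjusted p = 0.164). Ifitm3 did without TMM scaling (1.73, adjusted p = 0.0886), with cycling and border cells kept in the comparison (1.48, adjusted p = 0.0842) and without cells holding macrophage genes (1.50, adjusted p = 0.0505). The list's median was 1.22, 0.85 and 0.09 in the early, medium and large tumor.

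Among 21 lineage and state regulators, 5 were called lower and 0 higher (2.15% of all genes called lower). Sall1 stood at 161, 69.4 and 79.5 CPM against 212, 181 and 259 (−1.03 ± 0.218, adjusted p = 0.00783). Smad3, which carries TGF-β signals, stood at 43.9, 22.7 and 19.5 against 62.0, 62.3 and 58.7 (−1.02 ± 0.265, adjusted p = 0.027). Smad3 missed the threshold with depth-matched cells (−0.84, adjusted p = 0.131) and with DESeq2 (−1.04, adjusted p = 0.126), and stood at −0.21 with separate UMIs (adjusted p = 0.873). The transcription factor genes Maf (−0.99 ± 0.185, adjusted p = 0.00304) and Egr2 (−0.78 ± 0.217, adjusted p = 0.0401) fell too, with Egr2 at an adjusted p of 0.0516 by DESeq2. Bhlhe40, named after its values were seen, stood at 32.5, 29.4 and 46.0 against 6.92, 34.2 and 9.69 and did not pass (adjusted p = 0.0702). With the rule and the counts on separate UMIs, 0 regulators of 18 tested were called.

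Checkpoint genes differed in direction. Cd274, which encodes PD-L1, stood at 34.2, 44.0 and 50.2 CPM against 17.6, 34.9 and 17.1 (1.03 ± 0.291, adjusted p = 0.0425). The Cd274 call was lost with the rule and the counts on separate UMIs (0.38, adjusted p = 0.822) and without cells holding macrophage genes (0.75, adjusted p = 0.32). It was also lost with DESeq2 (1.06, adjusted p = 0.153) and without TMM scaling (0.93, adjusted p = 0.0745). Vsir, which encodes the inhibitory ligand VISTA, stood at 871, 574 and 603 against 1280, 1120 and 1210 (−0.73 ± 0.167, adjusted p = 0.0121), with no overlap of the groups. The other 10 tested genes of that list were not called (3.76% of all genes called higher and 2.15% lower). In complement, C3 stood at 9.76, 30.7 and 50.2 against 2.61, 11.6 and 16.5 (1.71 ± 0.362, adjusted p = 0.00803), though not with depth-matched cells (1.36, adjusted p = 0.0735) or without cells holding macrophage genes (1.24, adjusted p = 0.246), and the other 9 tested genes, among them C1qa, C1qb and C1qc, were not called.

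With cells holding any of 10 macrophage genes left out of both groups, 192, 149 and 110 selected cells remained in the early, medium and large tumor. In that comparison 374 of 8575 genes (4.36%) were called, 247 (2.88%) higher and 127 (1.48%) lower. Of the homeostatic list 15 genes were then lower, and of the other disease-associated genes 21 of 28 tested were higher. The medians were −0.72 and 1.31.

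The proximal promoters of marker genes were searched for motifs of factors of the myeloid lineage and of lysosomal genes, as RefSeq sequences of GRCm38 from 250 bases before to 50 bases after the start. The AP-1 motif TGANTCA, read on both strands, was in 2 of the 4 promoters found for the 5 marker genes, Cst7 and Itgax, and in 5 of 23 promoters of the other disease-associated list. It was in 0 of 19 promoters of the homeostatic list, in 7.93% of all 27025 promoters and in 4.68% of 6991 promoters of tested genes. It was in 9.35% of 278 promoters of genes called higher and in 2.45% of 163 of genes called lower. The sequences given here show the motif in capitals for both marker genes and for Igf1, Cybb and Gpnmb of the list, 5′ to 3′ on the strand of the gene.
Cst7, chr2:150570399-150570425, + strand: ctggttaaaaTGATTCAgcaagaaacc
Itgax, chr7:128129484-128129510, + strand: ccacctcctcTGAGTCAcgctgacaac
Igf1, chr10:87861064-87861090, + strand: agctggaactTGAATCActattctgga
Cybb, chrX:9469447-9469473, − strand: tacttgtgacTGAATCAcaagatcttt
Gpnmb, chr6:49036516-49036542, + strand: caggggcaagTGACTCAtgagcacgag

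The PU.1 motif GAGGAAGT was in 0 of the 4 promoters, in 1 of 23 of the other disease-associated list (Spp1), in 3.28% of all promoters and in 3.48% of those of tested genes. It was in 5.4% of promoters of genes called higher and 6.13% of those called lower. The palindrome TCACGTGA of the MITF and TFE family, which contains the shorter CACGTG, was in the promoter of Ctsd, which encodes cathepsin D, and in that of Siglech. It was in 1.01% of all promoters, 2.3% of those of tested genes, 2.88% of those called higher and 2.45% of those called lower. CACGTG was in 7.24% of all promoters and 10.8% of those of tested genes. A match describes these letters only and shows no bound factor.
Ctsd, chr7:142387909-142387936, − strand: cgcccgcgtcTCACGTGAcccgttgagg

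The share of microglia with the marker rule, among non-cycling and non-border microglia, was 5.85% for the early tumor (exact interval 5.13% to 6.63%, 229 of 3915 cells). It was 24.7% for the medium tumor (22.1% to 27.5%, 249 of 1007) and 18.7% for the large one (16.3% to 21.2%, 195 of 1045). The early value lay inside the interval of early T cells given above, which includes their own Cst7. When the whole rule, microglial genes included, was applied to cells thinned to 1000 UMIs, the shares were 1.64%, 7.91% and 4.59%. On that reading the medium and large values lay inside the thinned T cell intervals given above. Run 1, which held few cells, gave 15.5%, 31.7% and 54.8%, and run 3 gave 5.09%, 20.9% and 16.2%. The order of medium and large was thus reversed in run 1, where the large tumor had 31 microglia. With 1 tumor sample per stage, stage and animal cannot be told apart.

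**Figure D5:**
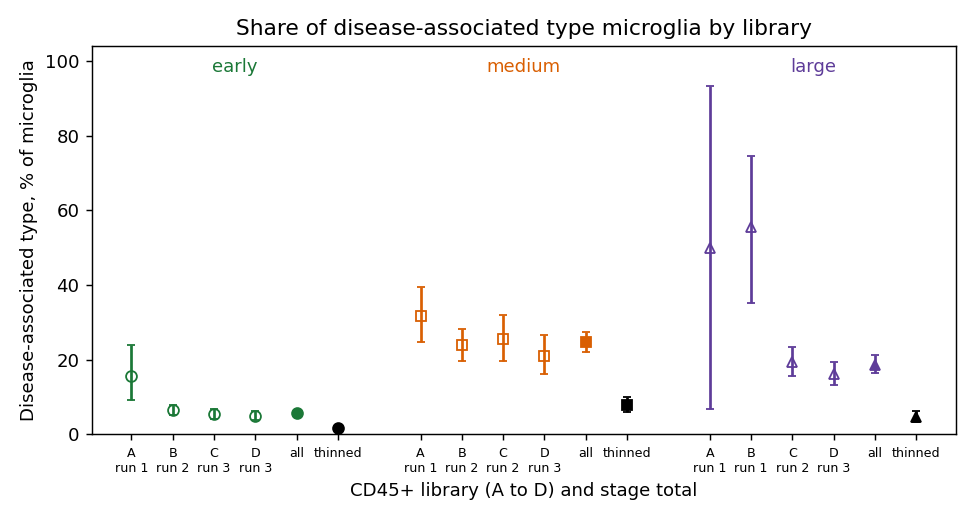
Share of microglia that met the marker rule, in percent, for each CD45+ library (A to D, with its sequencing run), for the whole stage and after thinning every cell to 1000 UMIs. Bars are exact 95% intervals covering counting error only. Early libraries B to D lie between 4.84% and 6.46%, medium libraries between 20.9% and 31.7%, and large libraries A and B rest on 4 and 27 microglia.

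Within the selected cells, levels differed between stages, with no test. Igf1 stood at 13, 29.4 and 384 CPM, and 88 large-tumor cells held it. It also rose in the comparison microglia, at 0.914, 6.16 and 27.3 CPM, so its rise was not particular to the selected cells. Fn1, fibronectin, stood at 6.51, 34.7 and 525 CPM, and Fabp5, a fatty acid binding protein, at 30.9, 230 and 353. Ms4a7, a gene of border and infiltrating macrophages, stood at 16.3, 61.4 and 153. Arg1, arginase 1, gave 0 UMIs in the early and 154 in the large sample, there from 35 cells, and Retnla gave 0 and 149, from 23 cells. Arg1, Fn1 and Ms4a7 are monocyte or macrophage markers. In the comparison microglia Arg1 stood at 0, 12.3 and 13.1 CPM, Fn1 at 9.27, 32.2 and 23.9 and Ms4a7 at 11.9, 20.5 and 19.4. Fabp5 stood there at 13.7, 47.2 and 68.9 CPM and Retnla at 4.18, 0 and 7.98. Each of these genes was thus also higher in the large than in the early comparison microglia. For Fn1, Ms4a7, Fabp5 and Retnla the ratio was smaller there than in the selected cells.

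In the medium sample Ifi44, an interferon-stimulated gene, gave 144 UMIs from 67 cells against 0 in the early and the large sample, and the comparison microglia of that tumor also held it at 112 CPM. Apobec3, which edits viral DNA, stood at 21.2, 631 and 25.1 CPM, and AI506816 at 21.2, 633 and 8.37. Their counts were near equal, at 13 and 13 UMIs early and 473 and 474 medium, though 18 and 6 in the large sample. In the medium sample the highest cell held 52 UMIs of each. The comparison microglia of that sample held them at 283 and 270 CPM, against 26.8 and 11.2 in the early sample. The 2 entries may hold the same reads, which was not tested, so they are not 2 separate results. In the early sample Tnf stood at 2230 CPM from 119 cells, against 482 and 287 in the medium and large samples. The heat shock genes Hspa1b (693, 97.4 and 123) and Dnajb1 (550, 73.4 and 155) and the interferon-induced gene Gbp2 (109, 73.4 and 1.40) were also highest there. In the comparison microglia Hspa1b stood at 834, 598 and 540 CPM, Dnajb1 at 654, 375 and 499 and Gbp2 at 44.3, 54.8 and 5.70. Both heat shock genes were thus lower in the early selected cells than in the early comparison cells. Several other early genes came almost wholly from 1 cell, namely Ttr (97.4% of UMIs), Enpp2 (95.2%), Mgp (98.0%) and Ngp (100.0%), as did Mcpt2 (100.0%) and Ptn (83.3%) in the large sample. In the medium sample 1 cell gave 49.1% of Igkc, 54.7% of Igha and 57.0% of Jchain, which are antibody genes.

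Cells selected by Lpl alone, Axl alone or Itgax alone were also compared with cells that held at least 2 marker genes, as a description. In the large tumor Apoe stood at 19200 CPM in the 6 cells with Lpl alone, at 26800 in 16 cells with Axl alone, at 6790 in 18 cells with Itgax alone and at 33500 in the 149 cells with 2 or more genes, against 4580 in the comparison cells. In the early tumor the same groups stood at 1630, 4600, 2740 and 7370 against 2290. Early cells with Lpl alone were thus not above the comparison cells in Apoe, whereas their Cxcl13 stood at 1060 against 114 CPM.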

How the data were processed

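The CD45+ cells of 3 tumor samples were used from inDrop libraries. The authors aligned reads with RapMap in bcbio-nextgen to the mouse transcriptome with transgene sequences added, removed empty droplets, and deposited unnormalized UMI counts for each gene in each cell. A library annotation gives sort, stage and run. The labels give build mm10. The methods also name removal of ambient RNA and doublet calling, and whether these preceded the deposited counts is not given in the sources used here. The 9091 count columns of CD45- libraries were not used.

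Counts were summed per tumor and cell group (6 sums, 614502 to 7657953 UMIs) and tested with edgeR 4.0.16 (quasi-likelihood, TMM, filterByExpr, two-sided, Benjamini-Hochberg, threshold 0.05) with the tumor as a block in R 4.3.3. DESeq2 1.42.0 was an alternative. Both groups of a tumor come from the same libraries, which gives the pairing, and their deviations correlated at 0.302, 0.337 and 0.235 over 9636 genes. On simulated data for this comparison (9327 genes), 44.6% of 2-fold and 84.3% of 4-fold changes were recovered. The simulation gave each gene 1 mean over all tumors and a common dispersion of 0.0333. It held no differences between tumors and none in spread between genes, so these rates are not the power of the test on the real data. CPM values are UMIs scaled to a fixed total of each group's sum, without division by transcript length. Intervals are exact (Poisson, Clopper-Pearson) and cover counting error only. P-values set each difference against its spread over 3 tumor samples of different stages. That spread had 2 residual degrees of freedom per gene and was moderated with values shared over genes (median of 17.1 prior degrees). For a gene near that median the p-value thus rests mostly on spread shared between genes. The fit was robust, so a gene with outlying spread borrows less and its p-value rests more on its own values. The SE was derived from the fold change and the test statistic. Scrublet called 33 of 11110 cells, too few to rely on, so its highest 5% of scores served as an alternative. Scanpy 1.11.5 and Python 3.11.15 were used.

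Named outside the rule were the 14 highest and 14 lowest fold changes among called genes with at least 60 UMIs, the same direction in 3 tumors and a symbol that is no predicted gene, up to 4 called genes of each list (with none called, the 2 most abundant), the 8 highest and 8 lowest stage ratios, and the 10 genes most like the marker sum. The members and lists were chosen with earlier results of these data known. Alternatives covered the tool, scaling, filter, block, each tumor and run, depth matching, marker threshold, UMI split, macrophage genes, doublet scores and, chosen after seeing the data, shared barcodes. Some genes and a part of the genotype are not reported here.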

Additional observations from a re-analysis of the deposited data

Results flagged for a closer look

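The share of selected cells in the early library A was 15.5% of 103 microglia, far from 6.46%, 5.37% and 4.84% in the other 3 early libraries. That library was the only early library of run 1. After thinning to 1000 UMIs it stood at 2.47% (2 of 81, exact interval 0.3% to 8.64%), against 1.76% and 1.55% for the early libraries of runs 2 and 3. Its exact interval (9.15% to 24%) did not overlap theirs, whose highest upper bound was 7.89%. The gap passed Dixon's 95% critical value, which chance alone passes in about 1 in 20 groups.

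For 10 of the genes looked at, the log2 ratio of selected to comparison microglia lay above 0 in 1 tumor and below 0 in another by more than counting error. The list is not complete. S100a8 stood at 475 against 73.4 CPM in the early and 306 against 485 in the medium tumor. The human EGFR transgene stood at 4.0 against 97.2 CPM in the medium and 40.5 against 11.4 in the large tumor, from few cells. Genes whose sign changed within counting error are not listed, and the differences between tumors were not tested. Tnf had a log2 ratio of 1.12 in the early tumor and of −1.11 and −1.06 in the medium and large tumor, on 1369, 361 and 206 UMIs of the selected cells. Otud1 stood at 1.06, −1.66 and −1.06, on 51, 9 and 16 UMIs. Ly6a stood at 1.78, −0.51 and −0.62, and Meg3 at 1.48, −0.26 and −2.25. Ngp stood at 3.51, −2.84 and −2.50 and Enpp2 at 2.73, −2.50 and −0.29, where 1 early cell gave 100.0% and 95.2% of the early UMIs. The antibody genes Igkc (−3.36, 0.69 and −5.61), Igha (−3.93, 0.55 and −2.61) and Jchain (−2.99, 1.36 and −4.70) were higher in the selected cells of the medium tumor, where 1 cell gave 49.1%, 54.7% and 57.0% of their UMIs. The mitochondrial gene mt-Cytb stood at −0.16, −0.07 and 0.08.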

How the results depend on the processing

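The counts of genes called depended on the fit. Without the replicate block, 41 genes were higher and 5 lower. DESeq2 called 230 and 106, and testing every gene with at least 1 UMI gave 436 lower. Leaving out 1 tumor gave 201 to 555 higher and 90 to 386 lower, with the lowest counts without the large tumor and the highest without the early one. Matched depth gave 235 higher, and splitting the UMIs gave 153 higher and 95 lower (fewer genes and fewer cells were tested). Leaving out macrophage genes gave 127 lower, leaving out run 2 gave 240 higher and leaving out run 3 gave 131 lower. Except for the smaller tables, the cause was not tested. Without TMM factors 255 were higher and 299 lower. Of the 74 named genes that were called, 0 reversed among those that each alternative could test. With split UMIs 13 of 44 tested lost the call, with matched depth 13 of 56, without macrophage genes 15 of 62 and with DESeq2 7 of 53. Without the block 64 lost the call, and without the early, medium or large tumor 12, 21 and 23 did.

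Leaving out 1 tumor gave held-out log2 fold changes of 2.45 to 3.66 for Lpl (2 of 3 passing) and 2.31 to 3.19 for Axl. The UMI split, where Lpl itself was part of the rule, gave 4.92 for Lpl. The share of selected cells in the early, medium and large tumor was 3.45%, 18.7% and 14.9% with at least 3 marker UMIs, 2.35%, 16.7% and 14.3% with at least 2 marker genes, and 1.64%, 7.91% and 4.59% after thinning. Run 1 gave 15.5%, 31.7% and 54.8% and run 3 gave 5.09%, 20.9% and 16.2%. Leaving out 1 library gave 5.52% to 6.33%, 23.3% to 26% and 17.7% to 21.6%. Without shared barcodes the shares were 5.91%, 22.5% and 18.4%, with 301 genes higher and 162 lower. Among stage ratios within selected cells, large over early reversed for Ptn in run 1 (−2.31), Ngp in run 3 (4.85) and Meg3 in run 2 (2.21), and the cause was not tested. Depth limited detection of rare genes: a count of 0 in the 673 selected cells allows a share of up to 0.446% of cells with a UMI.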

Other observations

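Of 22 oxidative phosphorylation genes tested, 7 were called higher and 0 lower in the selected microglia (3.76% of all genes called higher), with a median log2 fold change of 0.58. Cox5a stood at 114, 176 and 151 CPM in the early, medium and large tumor against 63.6, 84.9 and 80.3 (1.04 ± 0.187, adjusted p = 0.00235), and with depth-matched comparison cells 2 of the 22 genes were called (3.11% of all genes). Atp5k (1.03 ± 0.205, adjusted p = 0.00493), Ndufa1 (0.95 ± 0.206, adjusted p = 0.00931) and Uqcrq (0.87 ± 0.206, adjusted p = 0.0152) were the other named genes of that list. Ndufa1 and Uqcrq missed the threshold with depth-matched cells (0.86, adjusted p = 0.0515 and 0.66, adjusted p = 0.0738). They also did with separate UMIs (1.16, adjusted p = 0.0603 and 0.96, adjusted p = 0.0668). The same held without cells holding macrophage genes (0.84, adjusted p = 0.0519 and 0.66, adjusted p = 0.0946). All 36 ribosomal protein genes had a positive log2 fold change, with a median of 0.34, and Rps2 was called (0.71 ± 0.187, adjusted p = 0.0291), though not without cells holding macrophage genes (0.59, adjusted p = 0.0567). No gene was called by edgeR among 13 genes of the mitochondrial genome (median 0.10, and −0.003 without TMM scaling), where mt-Atp6 and mt-Cytb were the most abundant, or among 11 cholesterol synthesis genes (median 0.08, and −0.02 without TMM scaling), where Fdft1 and Insig1 were the most abundant.

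Of 10 cycling genes outside the rule, Mcm6, a replication helicase subunit, was called higher at 42.3, 54.7 and 23.7 CPM against 4.31, 19.2 and 7.41 (2.29 ± 0.374, adjusted p = 0.000962). The other 9 were not called, at 3.76% of all genes called higher. Among microglia before the cycling limit, Mki67 or Top2a was detected in 4.58%, 13.2% and 13.3% of cells with 2 or more marker UMIs and in 1.55%, 5.49% and 3.85% of the others. After thinning to 1000 UMIs the shares were 5.17%, 5.08% and 5.41% against 1.02%, 3.55% and 1.89%, on 3, 3 and 2 such cells, and the exact intervals overlapped in each tumor.

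Of the markers of other cells, 2 of 5 tested border macrophage genes (Clec12a and Colec12) and 1 of 7 neutrophil genes (Retnlg, from 11 cells, with 43% of its UMIs in 1 of them) were called higher (3.76% of all genes called higher). Retnlg stood at 0.82 (adjusted p = 0.694) with depth-matched cells. Siglech of the dendritic list and Slc1a3 of the astrocyte list, both also expressed by microglia, were called lower, Slc1a3 with an adjusted p of 0.0522 without cells holding macrophage genes. None of the tested T or NK cell (4), B cell (3), oligodendrocyte (4), glioma (1) or endothelial (4) genes was called by edgeR, and no red cell gene was tested.

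Across all 6263 microglia, the genes whose level per cell was most like the marker sum were Lyz1 and Lyz2 (mean Spearman correlation over 3 tumors 0.414 and 0.408, near-identical copies that reads may not tell apart), Apoe (0.343), Cybb (0.339), Fth1 (0.325), H2-Aa (0.319), H2-Ab1 (0.311), Cxcl13 (0.310), H2-Eb1 (0.305) and Cd74 (0.300), among 5042 genes. For Lyz2 it was 0.158, 0.488 and 0.578 in the early, medium and large tumor. Cells of a tumor share their libraries and differ in depth, so these values are descriptions.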
